A study of Mus musculus with 4 samples.

Results

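The bone matrix phosphoproteins of the small integrin-binding ligand, N-linked glycoprotein family are encoded in mouse by Spp1 (osteopontin), Dmp1 (dentin matrix protein 1), Ibsp (bone sialoprotein), Mepe (matrix extracellular phosphoglycoprotein) and Dspp (dentin sialophosphoprotein). The 5 genes were taken by symbol from a table of 41288 genes, and each had 1 row. They are secreted, acidic proteins that bind calcium and hydroxyapatite, carry many phosphorylated serines, and hold an arginine-glycine-aspartate (RGD) site through which cells attach by integrins. Osteopontin is made by many cell types, restrains mineral growth when phosphorylated and also acts on immune cells and osteoclasts. DMP1 is a product of cells maturing into osteocytes, where its loss raises FGF23 and causes phosphate wasting. Bone sialoprotein marks osteoblasts that have begun to mineralize, MEPE is made by osteocytes, and DSPP is mainly a product of odontoblasts, the dentin-forming cells of the tooth.

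RNA was sequenced from MC3T3-E1 cells, an unmodified (WT) pre-osteoblastic line from mouse skull, grown in DMEM with 10% fetal bovine serum. The control cells had no treatment. A strained culture received tensile strain of 2500 microstrain at 0.5 Hz for 1 h per day, another culture was kept in medium conditioned by the human prostate cancer line PC-3, and the last received both. Each of the 4 groups was 1 library, so no difference below has a replicate check, no test was made, and a treatment cannot be told apart from anything else that set its library apart. No medium conditioned by other cells was included, so PC-3 products and conditioning in general cannot be told apart.

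The table calls its columns O, L, T and LT. O was read as control, LT as both treatments, L as loading (a word of the strained samples' titles) and T as conditioned medium by elimination, since no label spells T out. If L and T were the other way round, the values given for strain and for conditioned medium would change places. The comparison of both treatments with control, and the departure from equal folds described further on, would stay as they are.

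Library totals were 10007546 to 10997085 counts, and 12234 to 12391 genes per library had at least 1 RPKM (reads per kilobase of gene model, scaled to the library total). Of 8 osteoblast markers, 5 had at least 1 RPKM in every library, among them Col1a1 and Runx2, while Alpl, Bglap (whose near-identical copy Bglap2 may share its reads) and Pth1r lay below it. Of 9 osteoclast and macrophage markers, only Ctsk reached 1 RPKM, at 6.07 to 6.90, and the summed level of the list was 6.61 to 7.79 RPKM. Calcr, Dcstamp and Ptprc had 0 counts in every library. A row of ribosomal RNA-like signal, Rn18s-rs5, chosen after its values were seen, took 1.52% of counts in the control, 2.80% with strain, 2.12% with conditioned medium and 3.36% with both. It was higher in the strained library of each pair and also in the conditioned-medium library of each pair. Its part in the results below was not tested.

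The family was almost entirely Spp1. Spp1 made up 99.1% of the summed RPKM of the 5 genes of control cells, 98.3% under strain and 99.8% in both libraries with the PC-3 medium. Dmp1 was the other gene with at least 1 RPKM, at 0.153% to 1.73% of the sum. Ibsp had 1 to 12 counts, and Mepe and Dspp had 0 counts in all 4 libraries. In bulk RNA, fewer cells making a transcript and less of it per cell cannot be told apart. Osteopontin was at the level of the commonest transcripts, whereas the other members of the family ranged from moderate to not detected.

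Spp1 lies on chromosome 5 at 104435111 to 104441053, plus strand, in the positions of the table, which are those of GRCm38, and its gene model is 1658 bases. Its promoter and that of Dmp1 are shown because these are the members with at least 1 RPKM, and their levels differed between libraries in different patterns. The windows run from 250 bases before to 50 bases after the gene start and come from RefSeq on GRCm38.p6, plus strand, with the window nearest to the start in the table where RefSeq gives several. Capitals mark a RUNX site (ACCACA), the palindromic E-box (CACGTG) and the inverted CCAAT box (ATTGG), each searched on both strands.
Spp1: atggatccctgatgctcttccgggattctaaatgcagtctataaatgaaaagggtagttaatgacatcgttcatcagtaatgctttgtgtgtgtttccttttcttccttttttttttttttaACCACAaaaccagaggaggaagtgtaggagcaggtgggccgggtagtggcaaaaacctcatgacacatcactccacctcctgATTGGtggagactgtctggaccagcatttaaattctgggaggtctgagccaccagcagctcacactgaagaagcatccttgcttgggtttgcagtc
Dmp1: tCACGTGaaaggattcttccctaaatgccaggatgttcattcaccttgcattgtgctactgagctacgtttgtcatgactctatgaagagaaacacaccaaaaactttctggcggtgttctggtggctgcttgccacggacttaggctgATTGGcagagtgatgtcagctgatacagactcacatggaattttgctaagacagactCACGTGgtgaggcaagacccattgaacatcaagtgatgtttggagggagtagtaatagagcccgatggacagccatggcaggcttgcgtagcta
The Spp1 window is chr5:104434861-104435160 and the Dmp1 window chr5:104197325-104197624, whose start lies 17 bases from that of the table. In Spp1 the RUNX match stood at -128 to -123 and the inverted CCAAT box at -46 to -42, counted from the gene start as +1. Dmp1 held no RUNX match, an inverted CCAAT box at -101 to -97 and palindromic E-boxes at -249 to -244 and -44 to -39. Ibsp and Mepe windows were read in the same way, and RefSeq gave 4 of the 5 members a window.

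The inverted CCAAT box, a motif chosen after the sequences were seen, was in all 4 windows and in 37.4% of the 32851 RefSeq windows of 300 bases. ACCACA was in Spp1 and Mepe and in 16.8% of all windows. CACGTG was in Dmp1 alone and in 7.15% of all windows, and each match is also an E-box (CANNTG), found in all 4 members and 72.3% of windows. The AP-1 site TGANTCA and the STAT site TTCNNNGAA were in 0 of the 4, against 7.81% and 8.30% of all windows. A CRE-like TGACGT was in Ibsp (7.51% of windows) and TATAAA in Spp1, Ibsp and Mepe (13.6%). A match says only that these letters occur.

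Spp1 had 22303 counts and 1223 RPKM in the control, 41557 counts and 2338 RPKM with strain, 61066 counts and 3455 RPKM with conditioned medium, and 56620 counts and 3412 RPKM with both. The exact Poisson 95% intervals, which cover counting error only here and throughout, were 1207 to 1239 RPKM for the control and 2315 to 2360 for strain. The intervals of the conditioned-medium libraries, 3428 to 3483 and 3384 to 3441, overlapped each other and lay above both others. In order of RPKM among all rows, Spp1 took rank 14 in control cells, 9 under strain and 5 in both libraries with the PC-3 medium. Among protein-coding genes it went from rank 7 to 4 with strain and to 2 with conditioned medium, with or without strain. It supplied 0.203% of all counts in the control and 0.573% with conditioned medium.

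Dmp1 lies on chromosome 5 at 104197558 to 104214109, with a gene model of 3118 bases. It had 362 counts and 10.6 RPKM in the control, 1379 counts and 41.2 RPKM with strain, 176 counts and 5.30 RPKM with conditioned medium, and 165 counts and 5.29 RPKM with both. The strain library was the high one, with a counting interval of 39.1 to 43.5 RPKM, clear of the control's 9.50 to 11.7. The conditioned-medium libraries lay lowest, and their intervals of 4.54 to 6.14 and 4.51 to 6.16 overlapped almost wholly. Among protein-coding genes Dmp1 was at rank 5701 in the control, 1470 with strain, 8008 with conditioned medium and 7970 with both. The ratio of Spp1 to Dmp1, in RPKM, was 116 in the control, 56.7 with strain, 653 with conditioned medium and 645 with both.

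Ibsp, which encodes the RGD protein of early bone mineral, lies at 104299287 to 104311472 on the same chromosome. It had 3 counts in the control, 1 with strain, 12 with conditioned medium and 3 with both, or 0.140, 0.0477, 0.576 and 0.153 RPKM. The interval with conditioned medium, 0.298 to 1.01 RPKM, overlapped that of the control and that of both treatments, and lay above that of strain, which ended at 0.266. The other pairs of intervals overlapped. Overlap does not settle a pair: the ratio of conditioned medium to control had an interval of 1.11 to 22.8. That of both treatments to conditioned medium was 0.0482 to 0.987, and each rests on 12 counts in 1 library. Mepe (104325329 to 104338611) and Dspp (104170703 to 104180127) were not detected. A count of 0 allows up to 3 counts, which is 0.162 to 0.178 RPKM for Mepe over the 4 libraries and 0.0614 to 0.0675 RPKM for Dspp.

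**Figure D1:**
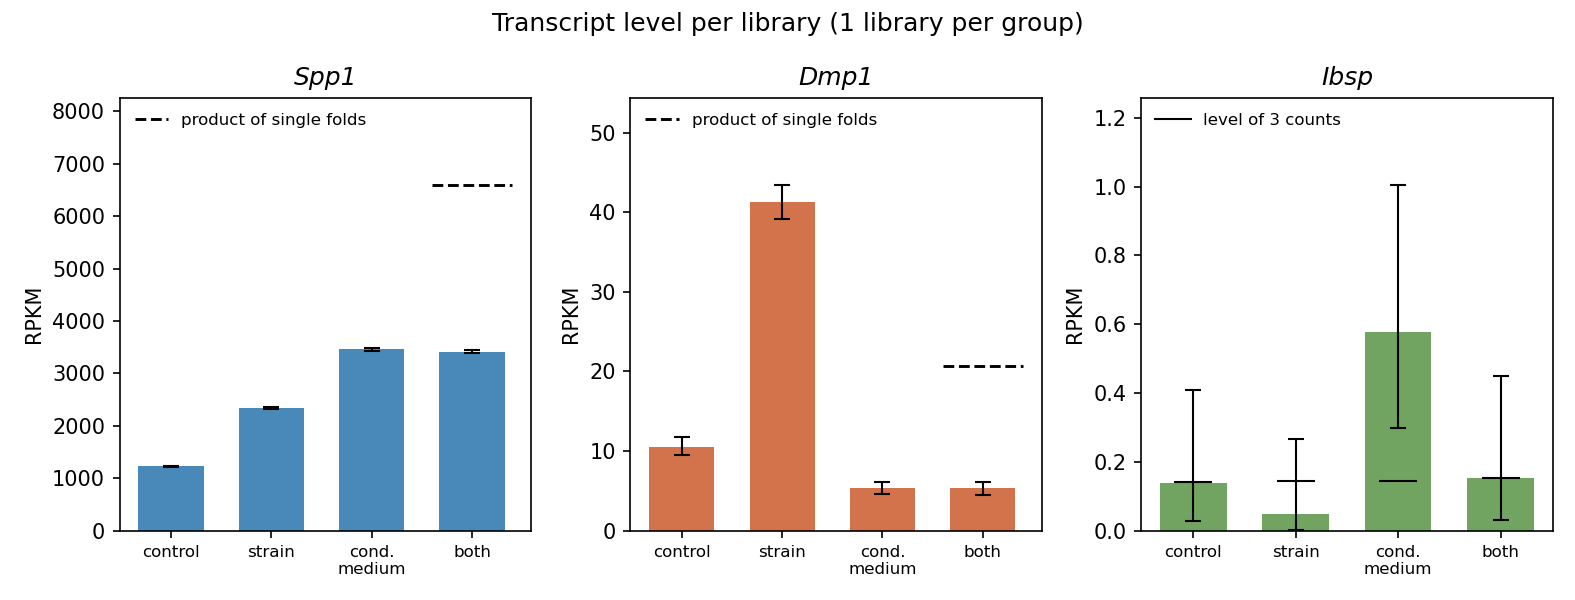
Level of Spp1, Dmp1 and Ibsp in RPKM (vertical axes, linear from 0) of control, strained, medium-treated and doubly treated cells, with exact Poisson 95% intervals for counting error. The dashed line over the combined library is the level that the product of the single-treatment folds would give (6603 RPKM for Spp1, 20.7 for Dmp1), and the short marks in the Ibsp panel are the level of 3 counts.

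Strain against control asks what tensile strain does in ordinary medium. The strain library held a 3.91-fold higher share of Dmp1 (95% counting interval 3.48 to 4.40) and a 1.91-fold higher share of Spp1 (1.88 to 1.94). The folds are ratios of count shares. On the scale of differences in log2(RPKM + 1), which understates changes at low levels, Dmp1 stood at 1.87 and Spp1 at 0.93. A gene was said to pass the size rule when this difference was at least 1 either way and the higher library had at least 1 RPKM. Dmp1 passed and Spp1 did not, so 1 of the 2 members with at least 1 RPKM passed, where 1.91% of 12699 genes did (0.819% higher). Of 11602 genes that also had at least 30 counts in the higher library, as both members did, 14 passed. Among the 11602, Dmp1 ranked highest of all and Spp1 at rank 11.

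Conditioned medium against control asks for the effect of the PC-3 medium without strain, and here Spp1 and Dmp1 lay on opposite sides. Spp1 was 2.82-fold higher (2.78 to 2.87), a log2 difference of 1.50, and passed the size rule. Dmp1 was lower at a ratio of 0.502 (0.417 to 0.602), a log2 difference of -0.88, and did not pass. The size rule was met by 2.69% of 12691 genes, 1.42% higher. With at least 30 counts, 112 of 11628 genes passed, and Spp1 ranked 34 from the highest and Dmp1 58 from the lowest. Ibsp was at a ratio of 4.13 (1.11 to 22.8), from 12 counts against 3, and was too low for the size rule.

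Conditioned medium plus strain against strain asks what the medium does to strained cells. Dmp1 was 7.80-fold lower (6.63 to 9.22), a log2 difference of -2.75, which was the lowest of 11529 genes with at least 30 counts. Spp1 was 1.46-fold higher (1.44 to 1.48), a log2 difference of 0.55 and rank 229 from the highest, under the size rule. The rule was met by 1 of the 2 members and by 2.74% of 12621 genes (1.35% lower), or 88 of the 11529 with at least 30 counts. Spp1 therefore stood higher with the medium in unstrained and in strained cells, and Dmp1 lower in both, and these comparisons share no library.

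Conditioned medium plus strain against conditioned medium asks what strain does in the PC-3 medium. Spp1 had a ratio of 0.988 (0.976 to 0.999) and Dmp1 of 0.999 (0.803 to 1.24), so counting error leaves room for a Dmp1 difference within that interval. Neither member passed the size rule, which 1.96% of 12575 genes met, or 12 of the 11501 with at least 30 counts. The sign of the small Spp1 difference, -0.02 on the log2 scale, turned to 0.01 with TMM-scaled totals (trimmed mean of M-values, a correction for composition) and to 0.02 with median-of-ratios size factors. Ibsp had 3 counts against 12, a ratio of 0.266 (0.0482 to 0.987).

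Both treatments against control, the comparison that does not hang on how L and T are read, gave Spp1 2.79-fold higher (2.75 to 2.83) and Dmp1 at a ratio of 0.501 (0.414 to 0.604). The log2 differences were 1.48 and -0.88. Spp1 passed the size rule, which 2.8% of 12674 genes met (1.39% higher). Of 11597 genes with at least 30 counts, 110 met it, and Spp1 ranked 30 from the highest and Dmp1 71 from the lowest. Ibsp had 3 counts in each library, a ratio of 1.10 (0.147 to 8.20).

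**Figure D2:**
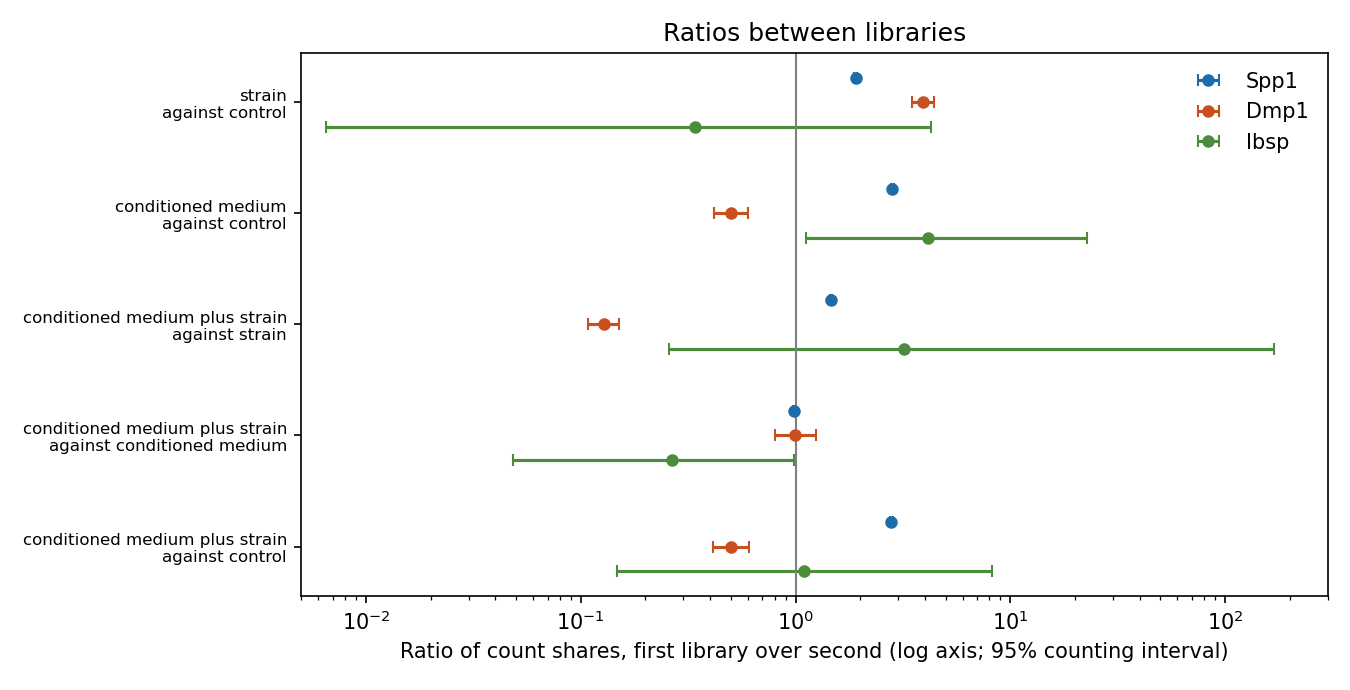
Ratio of count shares, first library over second, on a log axis for Spp1, Dmp1 and Ibsp in the 5 comparisons, with 95% counting intervals as bars (narrower than the point for Spp1). Dmp1 lies at 3.91 for strain against control and 0.128 for both treatments against strain, and both Spp1 and Dmp1 lie next to 1 for both treatments against conditioned medium.

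The responses to strain without and with the medium were set against each other in a ratio of ratios, which is the same whichever single treatment is L or T. If the folds of the single treatments multiplied, Spp1 would stand 5.40-fold above the control, at 6603 RPKM, and Dmp1 1.96-fold above it, at 20.7 RPKM. The combined library had 3412 and 5.29 RPKM. The observed fold was below the product by a factor of 1.94 for Spp1 (1.90 to 1.97) and 3.91 for Dmp1 (3.07 to 4.98), with intervals from the log-scale standard error of 4 Poisson counts. As differences of log2(RPKM + 1) these were -0.95 and -1.87. Of 11743 genes with at least 1 RPKM and 30 counts in some library, 24 (0.204%) lay at -1 or below, with Dmp1 at rank 2 from the lowest and Spp1 at rank 28, and the median of all was -0.006. With 1 library per group, a joint effect and the variation of single cultures cannot be told apart.

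**Figure D3:**
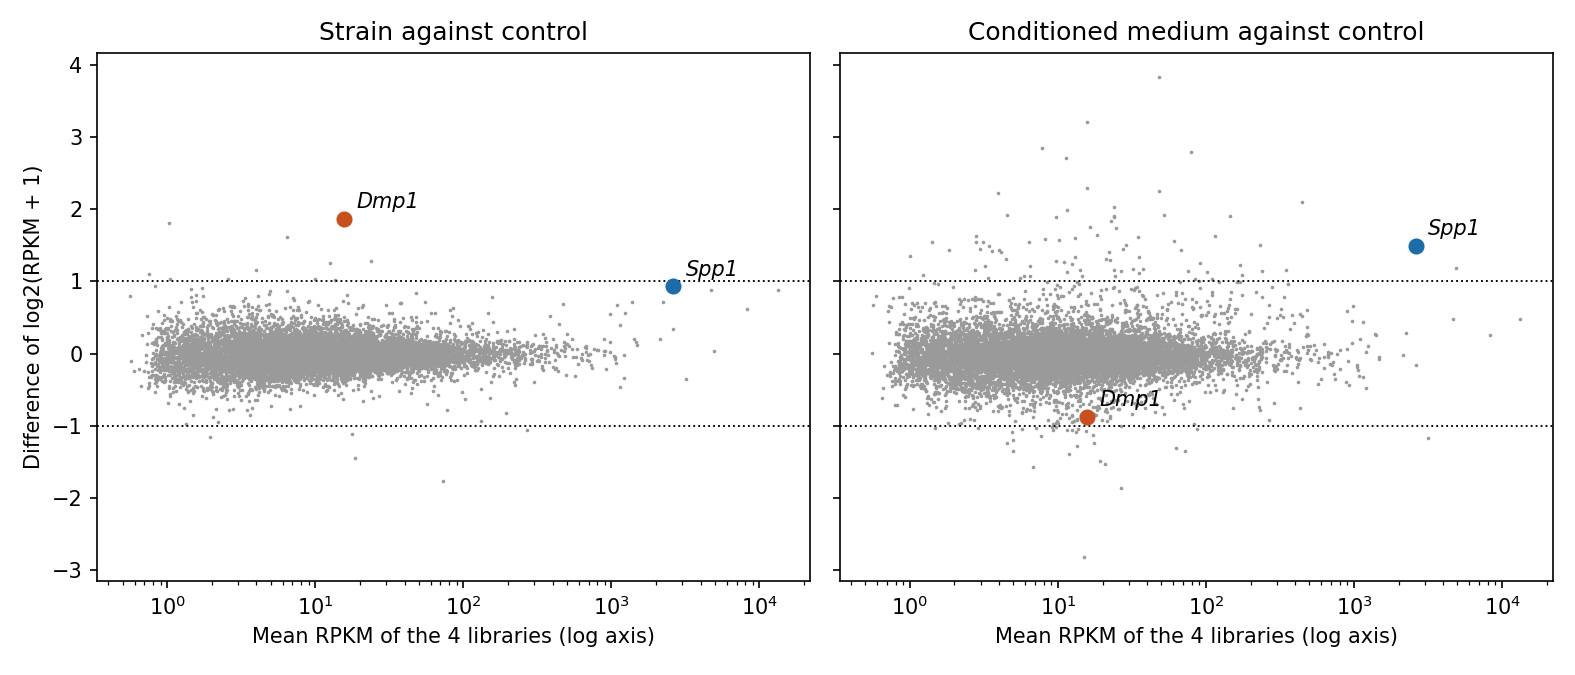
Difference of log2(RPKM + 1) against mean RPKM (log axis) for genes with at least 30 counts in a library and at least 1 RPKM in a library of either comparison, for strain against control on the left and conditioned medium against control on the right. Dotted lines mark the size rule at 1 and -1. Dmp1 stands at 1.87 and -0.88, and Spp1 at 0.93 and 1.50.

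Both members were set beside genes of like abundance. The 23 rows with a mean of at least 1000 RPKM include some that are not messenger RNA, such as the ribosomal RNA-like Rn18s-rs5. Among the 23, Spp1 had the highest difference for strain against control, followed at 0.88 by Rn18s-rs5 and LOC101056014. Spp1 also had the highest for conditioned medium against control, where the ferritin heavy chain gene Fth1 followed at 1.19, and for both treatments against control, where LOC101056014 followed at 1.15. For both treatments against strain it was at rank 2, below Fth1 at 0.98, and for both treatments against conditioned medium at rank 16. Dmp1 had a mean of 15.6 RPKM, and of 4920 other genes with a mean of 7.80 to 31.2 RPKM, 0 were higher than it for strain against control. In that band 41 genes were lower than Dmp1 for conditioned medium against control and 0 for both treatments against strain. For both treatments against conditioned medium 1895 were higher and 3025 lower.

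The 5 members lie on the plus strand within 270 kb, in the order Dspp, Dmp1, Ibsp, Mepe, Spp1, and the window of 500 kb to each side was read for neighbours. It held 31 genes, of which 11 that are not members reached 1 RPKM in a library. Pkd2, which encodes polycystin 2 and starts just beyond Spp1, had 29.2, 26.7, 28.0 and 27.3 RPKM (control, strain, medium, both). Sparcl1, a relative of the osteonectin gene that lies before Dspp on the minus strand, had 31.7, 32.0, 19.8 and 17.1 RPKM. It shared the lower level of Dmp1 with conditioned medium, with a log2 difference of -0.65 against control, but not its high level with strain, at 0.01.

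Nudt9, an ADP-ribose hydrolase gene, stood at 33.5, 39.7, 47.0 and 47.3 RPKM, an order like that of Spp1 over a narrower range. The pseudogene LOC108169087 had the only neighbour difference past the size rule in any of the 5 comparisons, 1.16 for strain against control, on 49 counts against 18. Among the other expressed neighbours the differences from control lay between -0.85 and 0.49. No row of the table overlaps a member on either strand. In the GENCODE M21 annotation the unclassified transcript Gm42793 overlaps Spp1 on the same strand, and their reads could not be told apart there.

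**Figure D4:**
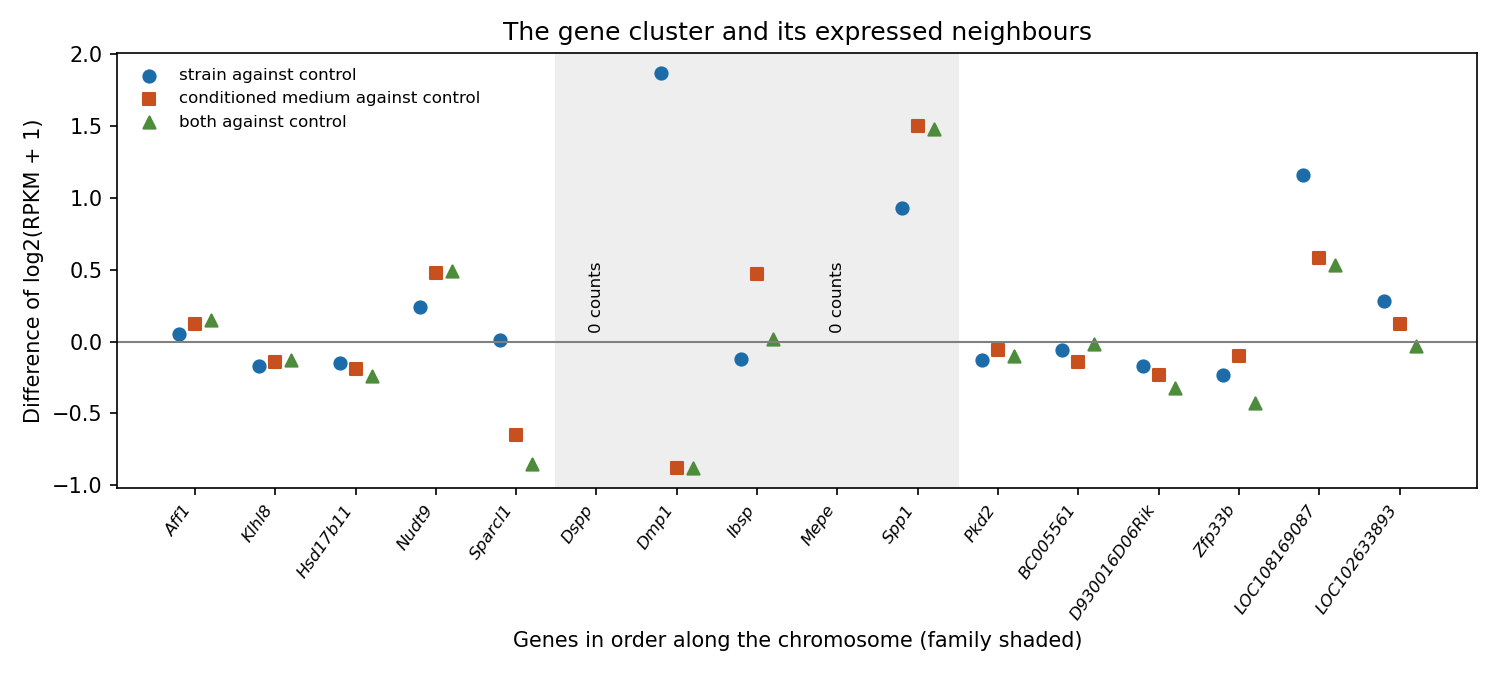
Difference of log2(RPKM + 1) from control for the family (shaded) and the 11 expressed genes within 500 kb, in chromosome order and not to scale. Circles are strain, squares conditioned medium and triangles both treatments. Dmp1 with strain (1.87) and Spp1 with conditioned medium (1.50) lie farthest from 0, and Dspp and Mepe had 0 counts.

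The genes nearest to each member in profile were taken by the Euclidean distance between centred log2(RPKM + 1) values over the 4 libraries, among 8198 other protein-coding genes with a mean of at least 5 RPKM. A distance is read against that of the member from a flat line, 1.22 for Spp1 and 2.24 for Dmp1. Snai1, a repressor of epithelial genes, was nearest to Spp1 at 0.257, with 20.7, 34.2, 48.0 and 48.0 RPKM (control, strain, medium, both). Dph5 (0.346), the AP-1 gene Fosl1 (0.346), Smim3 (0.354) and Noct (0.395) followed. Nothing lay as near to Dmp1, for which Ube2c, the gene of a ubiquitin-conjugating enzyme of mitosis, came first at 1.17, with 35.2, 52.4, 19.2 and 19.6 RPKM. The next were Cenpa (1.20), Ccnb2 (1.30), the water channel gene Aqp1 (1.32) and Ccnb1 (1.35), of which Cenpa, Ccnb2 and Ccnb1 serve in mitosis. All 5 were highest with strain, next in the control and lowest in the libraries with the medium, an order that picking by nearness to Dmp1 favours. The share of mitosis genes among the 8198 candidates was not counted.

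**Figure D5:**
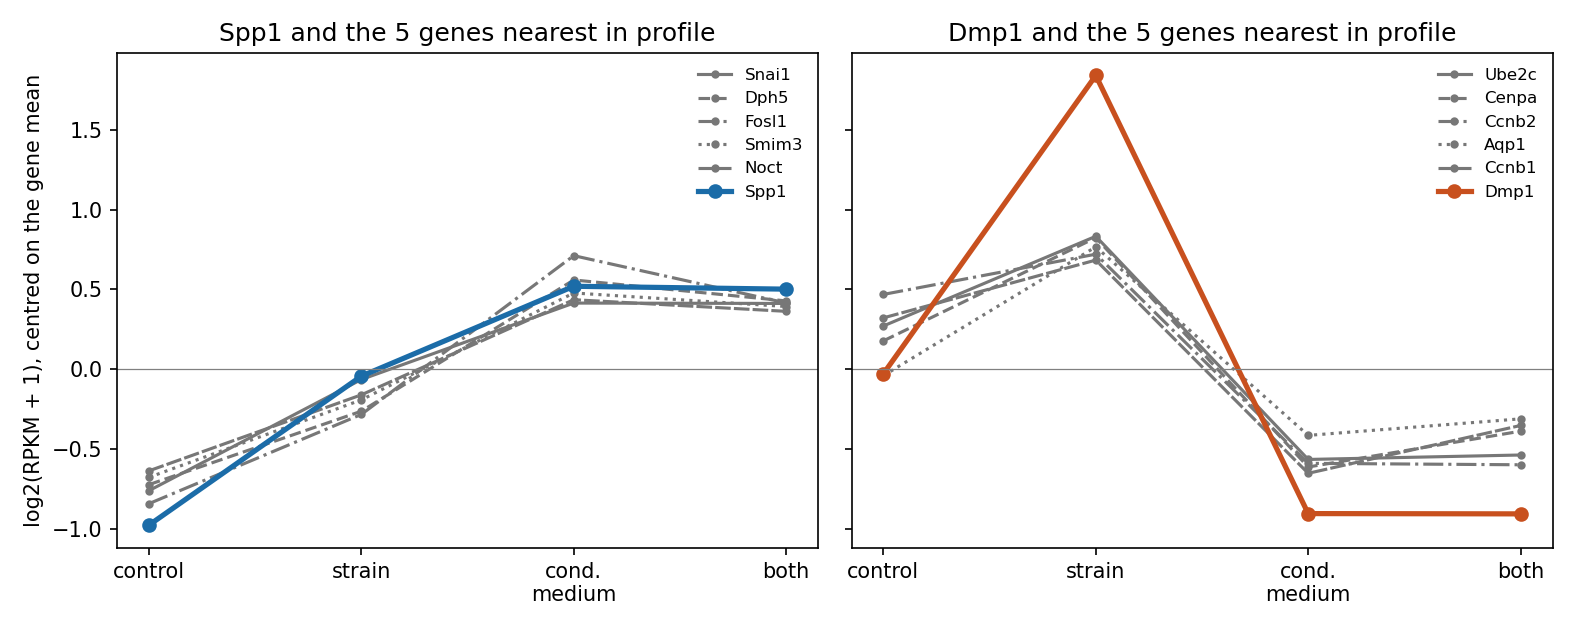
Centred log2(RPKM + 1) in the 4 libraries for Spp1 and Dmp1 (coloured) and the 5 protein-coding genes nearest to each in profile (grey). The grey lines follow Spp1 closely, with distances of 0.257 to 0.395, and run at a smaller range than Dmp1, with distances of 1.17 to 1.35.

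Of 10 receptor genes for the family, 7 reached 1 RPKM: the integrin chains Itgb1, Itgb5, Itgav, Itga5, Itga8 and Itgb3, and Cd44, the hyaluronan receptor that also binds osteopontin. Itgb1, the common beta chain, was the most abundant per length, at 184 to 191 RPKM, and Itgav, the alpha chain of the classical osteopontin receptors, had 43.7 to 46.0. Itga8, whose product pairs with beta 1 and binds osteopontin, had 12.1 RPKM in the control, 8.32 with strain, 4.91 with conditioned medium and 5.53 with both. It passed the size rule for conditioned medium against control (2.46-fold lower, 2.17 to 2.80) and for both treatments against control (2.19-fold lower, 1.94 to 2.49). The pass for both treatments was narrow. TMM scaling and size factors raise log2 differences in that comparison by 0.070 and 0.073, more than the distance of Itga8 from the rule. Itgb3, the beta chain of the vitronectin receptor, had 3.81, 6.05, 2.81 and 3.50 RPKM in the same order, highest in the strain library as Dmp1 was, and did not pass. The list had a median log2 difference of -0.01 for strain against control and -0.00 for conditioned medium against control, where all tested genes had -0.027 and -0.037.

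Enzymes that modify or cut the members made up a list of 22, of which 14 were tested for strain against control, with 11 higher, 3 lower and 0 past the size rule, at a median of 0.16. Over all genes in that comparison 43.6% were higher, at a median of -0.027. Fam20a, Phex and Mmp3 reached 1 RPKM only in the strain library of the pair, so they could only count as higher. For conditioned medium against control 8 of 13 were higher, at a median of 0.10, where 42.9% of all genes were higher, and Mmp3 alone passed. Here Phex and Mmp3 reached 1 RPKM only in the library with the medium, so they too could only count as higher. Mmp3 (stromelysin 1, which cuts osteopontin) had 9 counts in the control, 20 with strain, 56 with conditioned medium and 52 with both, and was 6.42-fold higher (3.15 to 14.8) for conditioned medium against control. Fam20c, the kinase that phosphorylates the family, had 19.2, 24.3, 16.2 and 19.2 RPKM (control, strain, medium, both). Phex, whose product degrades the acidic peptides released from MEPE and osteopontin, had 0.595 RPKM in the control and 1.19, 1.26 and 1.26 in the others. Its fold for strain against control was 2.001 (1.36 to 2.99), on 80 counts against 41, and the difference of 0.46 was under the size rule.

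The transglutaminase gene Tgm2, whose product crosslinks osteopontin, had 112 RPKM in the control, 114 with strain, 169 with conditioned medium and 161 with both. Mmp2, a gelatinase known to bind bone sialoprotein, had 405, 434, 524 and 547 RPKM. Mmp9, the gelatinase paired with DMP1, had 2.60, 3.54, 1.38 and 1.97 RPKM and was highest with strain and lowest with conditioned medium. Bmp1, the protease that cleaves DMP1 and DSPP precursors, lay between 23.8 and 26.6 RPKM. None of these 4 passed the size rule in any of the 5 comparisons.

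Among 16 transcription factor genes of the lineage and of AP-1, 15 were tested in each comparison. Runx2, the osteoblast master regulator, had 16.3 RPKM in control cells, 14.3 under strain and 12.3 in both libraries with the PC-3 medium, so it was lower where Spp1 was higher. Fosl1 had 30.6, 45.5, 91.7 and 74.5 RPKM and passed the size rule upward for conditioned medium (fold interval 2.73 to 3.31) and for both treatments (2.44-fold, 2.21 to 2.69) against control. Ccdc85b overlaps Fosl1 on the opposite strand in GENCODE M21, and reads of this pair may have been shared. Fos passed downward for strain against control and in the 3 comparisons of the combined library, with 490, 235, 260 and 84.9 RPKM in the usual order. The other 13 passed in none of the 5 comparisons. Ets1 was an example with an order like that of Spp1, at 4.97, 7.42, 8.33 and 8.32 RPKM. The list medians against control were -0.15 for strain, -0.07 for conditioned medium and -0.25 for both, with -0.064 over all genes in the last.

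Of 17 osteoblast matrix and mineralization genes, 9 of 11 tested were higher with strain, at a median of 0.20, where 43.6% of all genes were higher, and 0 passed the size rule. Bglap2 reached 1 RPKM only in the strain library of that pair, so it could only count as higher. Mgp, a vitamin K-dependent inhibitor of mineralization, had 711.5 RPKM in the control, 1038 with strain, 1120.3 with conditioned medium and 1064 with both. Ank, the pyrophosphate transporter gene, had 36.8, 51.8, 23.3 and 23.9 RPKM. It was high with strain and low with conditioned medium as Dmp1 was, and passed the size rule for both treatments against strain (2.17-fold lower, 2.001 to 2.36). The median of the list in that comparison was -0.11, with 3 higher and 8 lower, and over all genes it was -0.036, with 41.9% higher. There Bglap2 again reached 1 RPKM only in the strain library and could only count as lower.

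Of 5 osteocyte markers, 3 were tested for strain against control, and all 3 were higher with strain, at a median of 0.24, with 0 past the size rule. Over all genes 43.6% were higher, at a median of -0.027. Phex reached 1 RPKM only in the strain library of that pair, so it could only count as higher. Phex, described above, was higher in each of the 3 treated libraries than in the control. Pdpn, the podoplanin gene of early osteocytes, had 109.9 RPKM in the control, 125 with strain, 219 with conditioned medium and 220.3 with both, an order like that of Spp1. Its difference of 0.99 for conditioned medium against control was just under the size rule. TMM scaling and size factors raise log2 differences in that comparison by 0.045 and 0.040, more than the distance of Pdpn from the rule. Capg, an actin-capping protein gene, had 64.2, 76.0, 60.2 and 57.6 RPKM, highest with strain and lower with the medium, as Dmp1 was, over a narrower range. Sost had 0 counts in every library and Fgf23 at most 1. The cartilage collagen gene Col2a1, of the chondrocyte list, did have the pattern of Dmp1, with 42, 149, 36 and 35 counts (control, strain, medium, both). Matn3, another cartilage matrix gene of that list, was also highest with strain, on only 4, 10, 3 and 3 counts in the same order. Acan had 7, 1, 8 and 4 counts and was lowest with strain, Col9a1 had at most 1, and Sox9 had 34.3, 28.2, 25.3 and 19.7 RPKM and was highest in the control. The summed level of those 5 markers was 35.2, 30.9, 26.1 and 20.4 RPKM, and their part in the Dmp1 result was not tested.

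Other secretory calcium-binding phosphoprotein genes, relatives of the family by descent, were scarcely present. The list of 10 also held Sparc and its relative Sparcl1, the only 2 to reach 1 RPKM. Of the 10, 9 were in the table. The enamel genes Enam, Ambn and Amelx, Amtn, and the casein genes Csn2 and Csn3 had 0 counts in every library, and Odam had 1 count in 1 library. Sparc (osteonectin), from whose lineage these genes descend, had 494, 570, 535 and 555 RPKM (control, strain, medium, both), a far narrower range than that of Spp1.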

How the data were processed

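The authors deposited a table of whole-number read counts and RPKM values per gene for 4 libraries, per the file headers. HISAT2 (no version) and the build mm9 are named in the submitters' processing notes. The table's positions are those of GRCm38: 28748 of 40033 genes matched by Entrez number (71.8%) have the chromosome and start of the GRCm38.p6 RefSeq table, and the other starts differ. The kit was strand-specific, per the labels' protocols. The counting tool, its use of strand and its handling of multiply matching reads: not given in the sources used here. The deposited RPKM values equal count over length and library total within a relative 5.05e-06.

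From these, differences of log2(RPKM + 1) were computed, and ratios of count shares with 95% intervals derived from exact Clopper-Pearson bounds (scipy 1.17.1, pandas 2.3.3), which cover counting error only. PCR copies are not independent molecules. With 1 library per group no test was run. The code was tested on simulated data. The members, gene lists and rules were chosen with earlier results of these data known. Named genes are the members, the genes of the lists, expressed genes within 500 kb and the 5 nearest protein-coding profiles per member with at least 30 counts. Fth1, Rn18s-rs5, LOC101056014, Ccdc85b and Gm42793 fall outside this rule and were chosen after their values or positions were seen. Alternatives were a pseudocount of 0.1, other minimum levels, TMM (edgeR 4.0.16) and median-of-ratios scaling (DESeq2 1.42.0).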

Additional observations from a re-analysis of the deposited data

Results flagged for a closer look

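The strain response of Spp1 pointed upward without conditioned medium and marginally downward with it, by 0.93 and -0.018 on the log2 scale, a difference of -0.95. That of Dmp1 did likewise, by 1.87 and -0.002, a difference of -1.87. Each rests on 1 library per group and was not tested. The downward values lie within counting error for Dmp1, and for Spp1 the sign turned with TMM scaling and with size factors.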

How the results depend on the processing

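All differences of Dmp1 and the joint values of Spp1 and Dmp1 moved by less than their counting intervals under a pseudocount of 0.1, TMM-scaled totals and median-of-ratios size factors, as did the Spp1 differences under the pseudocount. In the order strain, medium, both against strain, both against medium and both against control, Spp1 was 0.98, 1.54, 0.57, 0.01 and 1.55 under TMM and 0.97, 1.54, 0.58, 0.02 and 1.55 under size factors. Genes past the size rule, in the same order, numbered 243, 341, 346, 247 and 355. They were 402, 556, 558, 379 and 596 with a pseudocount of 0.1, which raises low genes, and 63, 165, 130, 66 and 162 with a minimum of 5 RPKM. With at least 30 counts, a minimum chosen after seeing the data, they were 14, 112, 88, 12 and 110. Both scalings left each count within 1.5 times. Dropping the minimum of 1 RPKM could not change the counts. A difference of 1 in log2(RPKM + 1) already needs 1 RPKM in the higher library. No paired analysis was possible because each group has 1 library. Depth limits Ibsp, read on 1 to 12 counts, and Mepe and Dspp, where 0 counts allow no comparison.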
